A study of Mus musculus with 6 samples.

Results

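The miR-199 and miR-214 microRNAs of mouse cells sorted from wounds and from skin are described here: every name on the array that belongs to miR-199a, miR-199b or miR-214. The array held 5 such names among 690 miRNA names: mmu-miR-199a-3p, mmu-miR-199a-5p, mmu-miR-199b-5p, mmu-miR-214-3p and mmu-miR-214-5p. They were read by 12 of the array's 1928 probes, and all 5 were among the 222 names that passed the filter on dim signals. GFP-high cells from wounds 7 days after injury, which the submitters labelled myofibroblasts, were measured on 3 arrays (3, 4 and 6). They were set against GFP-low cells from skin, labelled fibroblast-like, on 3 arrays (1, 2 and 5). All mice carried an SMA-GFP transgene, in which green fluorescent protein marks cells that express smooth muscle actin, and all cells were sorted as negative for CD45, a blood cell marker, and CD31, an endothelial marker. Strain, age and sex were not given in the sources used here. Tissue and GFP level differed together between the groups, so their parts in any difference cannot be told apart. The labels do not state that the preparations came from separate animals, so p-values measure the spread between preparations, which may be technical.

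A miRNA hairpin can give a mature miRNA from each of its arms, named 5p and 3p, and each mature miRNA pairs with messenger RNAs through its seed, bases 2 to 8. The hairpins Mir199a-2 and Mir214 are cut from Dnm3os, a long non-coding transcript read from the strand opposite to the gene Dnm3 and known for its expression in embryonic mesenchyme. miR-199a-5p is known to lower Cav1, which limits TGF-β receptor signalling, in human lung fibroblasts. miR-199a-3p targets mTOR and Met in human liver cancer cells, and miR-199b-5p targets Dyrk1a in the mouse heart.

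RefSeq tables of the GRCm38.p6 assembly held the mature sequences of 4 of the 5 names, shown here with the seed in capitals because the names differ in what their seeds can pair with.
mmu-miR-199a-3p: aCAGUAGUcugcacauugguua
mmu-miR-199a-5p: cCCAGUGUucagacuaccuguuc
mmu-miR-214-3p: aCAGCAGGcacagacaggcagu
mmu-miR-214-5p: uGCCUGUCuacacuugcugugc
These are 4 different seeds. Among the mouse miRNAs in the table, miR-199b-3p shared the seed of miR-199a-3p and was not on the array. miR-761 shared the seed of miR-214-3p, was on the array, and was well above background on 0 arrays.

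The hairpins are shown with those mature arms in capitals, because they decide which gene a probe signal can come from.
Mir199a-2: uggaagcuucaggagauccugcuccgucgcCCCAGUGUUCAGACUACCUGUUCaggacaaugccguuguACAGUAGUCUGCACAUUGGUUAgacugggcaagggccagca
Mir214: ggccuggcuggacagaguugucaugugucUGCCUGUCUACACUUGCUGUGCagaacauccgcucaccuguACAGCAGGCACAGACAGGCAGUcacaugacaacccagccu
Mir199b: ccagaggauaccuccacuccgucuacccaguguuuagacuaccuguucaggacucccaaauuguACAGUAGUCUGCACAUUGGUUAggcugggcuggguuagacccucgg
Mir199a-1: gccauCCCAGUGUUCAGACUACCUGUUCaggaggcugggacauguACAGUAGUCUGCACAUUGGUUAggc
Mir199a-2 lies at chr1:162217814-162217923 and Mir214 at chr1:162223368-162223477, both on the plus strand and both inside Dnm3os (chr1:162217623-162225550), with 5444 bases between them. Both also lie within the span of the protein-coding gene Dnm3. Mir199b lies at chr2:32318460-32318569 on the plus strand, within the span of Dnm1, and Mir199a-1 at chr9:21496495-21496564 on the minus strand, within that of Dnm2. The miR-199a-3p sequence stood without a mismatch in Mir199a-2, Mir199a-1 and Mir199b, so its signal cannot be divided among 3 genes on 3 chromosomes. The miR-199a-5p sequence stood in Mir199a-2 and Mir199a-1. The closest stretch of Mir199b differed from it by 1 base, C10U, counted from the 5′ end of miR-199a-5p. How far the miR-199a-5p and miR-199b-5p probes read each other's miRNA was not tested. The miR-214 arms stood in Mir214 alone among these 4 hairpins.

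Values are log2 scaled signals: probe intensity divided by a brightness value of the array, averaged over the probes of a name, with a floor of -5.30 on the log2 scale. The arrays lay on 1 slide, detected 211 to 233 names in wound cells and 187 to 224 in skin cells, and held 0 saturated spots. Over all tested names the wound cells differed from the skin cells by a median of 0.38 on this log2 scale, and differences relative to that median are given where the comparison rests on it. The authors' deposited table holds the values of these same arrays, but its column numbers match the numbers in the sample titles for 0 of 6 arrays. The groups used here follow the samples recorded with the scanner files. With the table's column names taken as samples, the group named wound held the values of wound array 6 and skin arrays 1 and 5. The group named skin then held those of wound arrays 3 and 4 and skin array 2. In these mixed groups 0 of 202 names were called by limma and 1 had an unadjusted p under 0.05. The opposite direction that miR-199a-3p and miR-199b-5p took there follows from the mixing and is no separate result.

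As a check on the labelled cells, the smooth muscle miRNA miR-143-3p was higher in wound cells by 1.24 on the log2 scale (limma adjusted p = 2.68e-05, and 0.0734 with normexp background correction). miR-145a-5p averaged -4.59 ± 0.13 on the log2 scale in wound cells (SD, n = 3), while in skin cells it was well above background on only 2 arrays and at or near the floor, so the floor sets the size of its difference. The summed scaled signal of the 3 smooth muscle names was 0.422 to 0.444 on wound arrays and 0.176 to 0.206 on skin arrays. The limma call of miR-145a-5p (adjusted p = 0.00259) was lost with scaling over all probes, by quantiles or with none (differences of 0.096, 0.055 and 0.33), with normexp (1.06) and with a floor 4 times as high (0). Keratinocyte names also moved with the groups. The summed scaled signal of 12 such names was 0.00513 to 0.0092 on wound arrays and 0.12 to 0.204 on skin arrays. miR-203-3p and also miR-205-5p, both on the keratinocyte list, passed the background criterion on 0 wound arrays and on all 3 skin arrays. The other 10 keratinocyte names were below background on all arrays. Of 7 blood names 6 were below background on all arrays and 0 were tested, and their summed signal was 0.0272 to 0.0356 on wound arrays and 0.016 to 0.0321 on skin arrays. Of 2 endothelial names only miR-126-3p was tested, and it differed by 0.50 on the log2 scale without passing (limma adjusted p = 0.109). It was called higher with array weights (0.71), with the slide row as a block (0.63) and without skin array 2 (0.69). The limma adjusted p there was 0.0269, 0.0421 and 0.0396. Under some other scalings its difference turned negative. The endothelial sum was 0.0555 to 0.0773 on wound arrays and 0.0363 to 0.0583 on skin arrays. All 8 striated muscle names were below background on all arrays. The part of keratinocyte RNA or any other of these in the member differences was not tested. In bulk RNA, fewer cells of a type and less RNA per cell cannot be told apart.

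The comparison of wound with skin cells asked which miRNAs set wound myofibroblasts apart from fibroblast-like skin cells. Within the miR-199 and miR-214 group the members did not move as 1 block. miR-199a-3p and miR-199b-5p were lower in wound cells. miR-199a-5p, from the same hairpins as miR-199a-3p, differed by almost 0, and miR-214-3p was on average higher without passing the test. So 2 of 5 members passed limma at an adjusted p under 0.05, both lower. Of all 222 tested names 64.9% passed and 20.7% passed as lower.

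miR-199a-3p was the brightest member. Its log2 scaled signal was 3.18, 3.30 and 3.15 on wound arrays 3, 4 and 6, against 3.57, 3.99 and 3.93 on skin arrays 1, 2 and 5. Every wound array lay below every skin array, and skin array 1 was the lowest of its group. The means were 3.21 ± 0.08 in wound cells and 3.83 ± 0.23 in skin cells (SD, n = 3 each), a difference of -0.62, or 1.54-fold lower in wound cells (SE 0.13, 95% interval -0.96 to -0.28, limma adjusted p = 0.0104). Relative to the median of all tested names the difference was -0.998. Ranked by scaled signal, it was the 5th or 6th brightest name on the wound arrays and the 3rd or 4th on the skin arrays. Such ranks also carry how brightly each probe reads its miRNA.

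The probe intensities of miR-199a-3p before scaling show the same order. Its brighter probe gave 9630.3, 14145 and 13201 intensity units on the wound arrays, against 23671, 26733 and 36194 on the skin arrays. The dimmer probe gave 4647, 7474 and 6925 units on the wound arrays, against 11523, 12944 and 17689 on the skin arrays. Wound and skin did not overlap at either probe, and the local background was only 49.0 to 55.5 units. The skin arrays were brighter as a whole, however, with scaling values of 1244 to 1772 units against 786 to 1136 on the wound arrays. Unscaled values therefore tend to be lower in wound cells. At the brighter probe of miR-199a-5p they did not overlap either (3783, 5179 and 4795 units against 6069, 5920 and 8792). After scaling, both probes were lower in wound cells, by -0.64 and -0.57 on the log2 scale (probe-level limma adjusted p = 0.00638 and 0.0117).

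miR-199b-5p differed in the same direction and by a similar amount. Its log2 scaled signal was 1.54, 1.42 and 1.24 on wound arrays 3, 4 and 6, against 2.30, 1.90 and 2.25 on skin arrays 1, 2 and 5. The groups did not overlap, and here skin array 1, the lowest of its group for miR-199a-3p, was the highest of its group. The means were 1.40 ± 0.15 in wound cells and 2.15 ± 0.22 in skin cells (SD, n = 3 each), a difference of -0.75, or 1.68-fold lower in wound cells (SE 0.14, 95% interval -1.12 to -0.38, limma adjusted p = 0.0072). Relative to the median of all tested names it was -1.13. It ranked 17th on each wound array and 10th to 15th on the skin arrays.

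miR-199a-5p had overlapping groups. Its log2 scaled signal was 1.37, 1.37 and 1.19 on wound arrays 3, 4 and 6, against 1.16, 1.37 and 1.42 on skin arrays 1, 2 and 5. The highest value was on a skin array and so was the lowest. The means were 1.31 ± 0.10 in wound cells and 1.32 ± 0.13 in skin cells (SD, n = 3 each), with a difference whose 95% interval ran from -0.24 to 0.24 (SE 0.09, limma adjusted p = 1). That interval leaves out changes of the size measured for miR-199a-3p on this scaling. Relative to the median of all tested names the difference was -0.38. Its rank was 18th on each wound array and 23rd to 25th on the skin arrays.

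miR-214-3p was higher on average in wound cells, by less than the test could resolve. Its log2 scaled signal was 1.05, 0.82 and 0.83 on wound arrays 3, 4 and 6, against 0.09, 0.80 and 0.47 on skin arrays 1, 2 and 5. The groups did not overlap, but the lowest wound value and the value of skin array 2 were nearly equal, and at the brighter of its probes they overlapped. The means were 0.90 ± 0.13 in wound cells and 0.45 ± 0.36 in skin cells (SD, n = 3 each), a difference of 0.45 (SE 0.20, 95% interval -0.07 to 0.96, limma adjusted p = 0.106). Relative to the median of all tested names it was only 0.068. Without skin array 2 the difference was 0.62 (limma adjusted p = 0.0326), so that array decides the call. Its rank was 21st to 26th on the wound arrays and 31st to 40th on the skin arrays. Counting members whose groups did not overlap gives 3 of 5, against 69.8% of all tested names.

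miR-214-5p, from the other arm of Mir214, was near the limit of detection. The mean over its probes lay at the floor of -5.30 on all 6 arrays, so its difference of 0 on that scale is not a measurement. Of its 4 probes only 1 was well above background, on all 6 arrays. That probe gave 51.7, 78.2 and 69.0 intensity units on wound arrays 3, 4 and 6, against 73.2, 79.5 and 88.0 on skin arrays 1, 2 and 5. After scaling it was 0.0657, 0.0714 and 0.0607 on the wound arrays, against 0.0492, 0.0639 and 0.0497 on the skin arrays, and skin array 2 overlapped the wound arrays. The difference was 0.29 on the log2 scale (SE 0.13, probe-level limma adjusted p = 0.101).

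**Figure D1:**
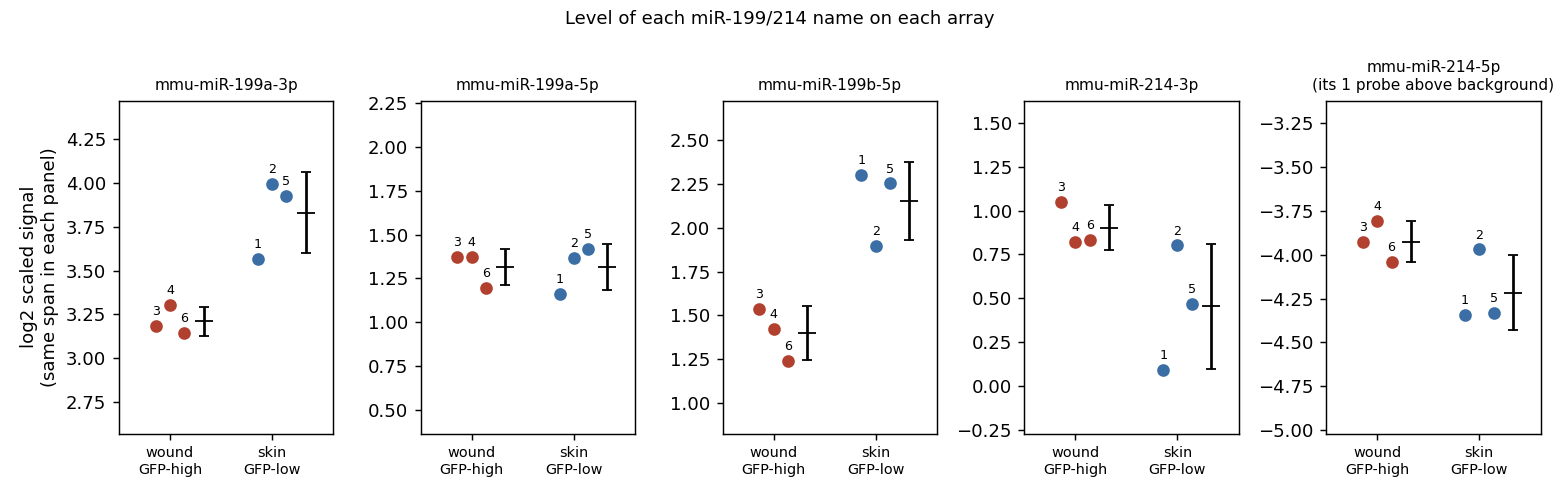
Log2 scaled signal (y axis, the same span in each panel) of the 5 miR-199 and miR-214 names in GFP-high wound cells and GFP-low skin cells; points are arrays with their sample numbers, bars are mean ± SD (n = 3). Wound arrays lie below all skin arrays for miR-199a-3p and miR-199b-5p, overlap them for miR-199a-5p, and lie just above them for miR-214-3p; miR-214-5p is shown by its 1 probe above background.

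The members were read with unequal precision. Over the 9 member probes that were well above background on all arrays, repeated spots of 1 probe on 1 array varied by 2.26% to 21.9% (coefficient of variation), at mean intensities of 51.7 to 36194 units. The log2 ratio of the brighter to the dimmer probe stayed within a range of 0.13 for miR-199a-3p, 0.15 for miR-214-3p, 0.24 for miR-199b-5p and 0.36 for miR-199a-5p over the 6 arrays. For miR-199a-5p that range was wider than the range of the name itself, and its probes did not order the arrays alike: skin array 1 was the lowest at the brighter probe but not at the dimmer one. Tested probe by probe, 4 of those 9 were lower in wound cells at an adjusted p under 0.05 in limma, against 21.6% of the 402 tested probes. These 4 were both probes of miR-199a-3p and both of miR-199b-5p. The miR-199b-5p probes differed by -0.88 and -0.71 on the log2 scale (adjusted p = 0.00357 and 0.0051). The probes of miR-214-3p differed by 0.53 and 0.42 (adjusted p = 0.0504 and 0.0958).

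How arrays were scaled set the level of every difference. Under each scaling tried, miR-199a-3p and miR-199b-5p lay below miR-199a-5p, and miR-214-3p lay above it. Apart from quantiles, the scalings divide a whole array by a single factor, which leaves the gaps between these members unchanged. Only quantile scaling could therefore have altered that order. Under 5 scalings (the 75th percentile over bright probes or over all probes, the median, quantiles and none) miR-199a-3p differed by -1.30 to -0.62 on the log2 scale and miR-199b-5p by -1.44 to -0.52. Each was called lower by limma in 5 of 5. miR-199a-5p ran from -0.69 to 0.23, called lower under 2 scalings and higher under 1. miR-214-3p ran from -0.24 to 0.68, called higher under quantile scaling alone. Over the same scalings the median of all tested names ran from -0.19 to 0.38, so the near-0 difference of miR-199a-5p was seen on the reported scale only. The arrays stood in 2 rows of the slide, with wound array 3 and skin arrays 1 and 2 in row 1. Within row 1 and row 2 the differences were -0.60 and -0.70 for miR-199a-3p, -0.56 and -0.92 for miR-199b-5p, 0.11 and -0.13 for miR-199a-5p, and 0.60 and 0.36 for miR-214-3p, too few arrays a row for a test.

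**Figure D2:**
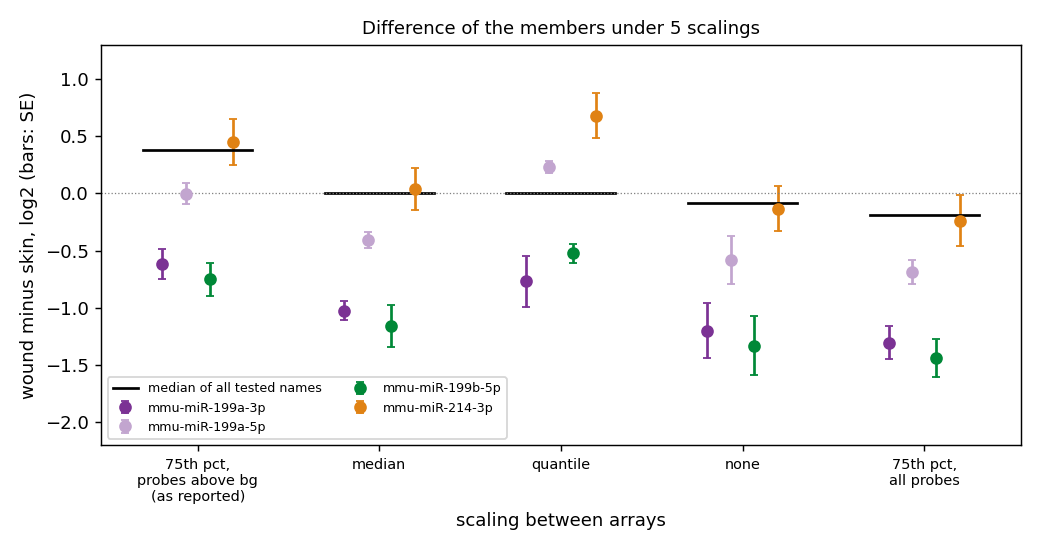
Difference of 4 miR-199 and miR-214 names, wound minus skin, on the log2 scale (y axis) under 5 ways of scaling the arrays (x axis); points are limma estimates with their SE, and black lines are the median over all 222 tested names. miR-199a-3p and miR-199b-5p lie below 0 and below the black line under each scaling, while miR-199a-5p and miR-214-3p cross 0.

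Ratios within an array do not depend on a factor that divides the whole array. The log2 ratio of miR-199a-3p to miR-199a-5p was 1.81, 1.93 and 1.95 on wound arrays 3, 4 and 6, against 2.40, 2.63 and 2.51 on skin arrays 1, 2 and 5. The groups did not overlap. The ratio averaged 1.90 ± 0.08 in wound cells and 2.51 ± 0.11 in skin cells (SD, n = 3 each), a change of -0.62, so the 3p arm was 1.53-fold lower relative to the 5p arm in wound cells (SE 0.12, 95% interval -0.90 to -0.33, limma adjusted p = 0.00316 over 20 hairpins). The change was called in 14 of 14 alternatives, at -0.998 to -0.56, with limma adjusted p of at most 0.0175. Among these, median scaling, no scaling, the total signal per miRNA and the higher floor returned the same -0.62. A factor common to both arms cancels in the ratio, so scaling by such a factor does not test its size. Since miR-199a-3p can also come from Mir199b, which does not hold miR-199a-5p, this ratio covers more than the arms of 1 hairpin.

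Unequal arms were common on these arrays. Of the 20 hairpin names with both arms tested, 13, or 65%, changed their 3p to 5p ratio in limma, 6 towards the 5p arm and 7 towards the 3p arm, by -2.25 to 2.88 on the log2 scale. miR-199a was 11th of 20 by the size of its change. Among the called names, miR-199a alone had both arms well above background on all 6 arrays. Each other called name had an arm that was not, and a dim arm held at the floor limits such a ratio. The other names with both arms above background on all arrays were not called: miR-140 (-0.18), miR-214 (0.45), miR-22 (-0.0044), miR-337 (-0.26) and miR-574 (-0.058). The miR-337 ratio was exactly 0 on skin array 2, as when both arms lie at the floor, so the floor limits its ratio too. For miR-214 the ratio differed by 0.45 (limma adjusted p = 0.0855), which is the difference of miR-214-3p alone, since the 5p arm stood at the floor.

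**Figure D3:**
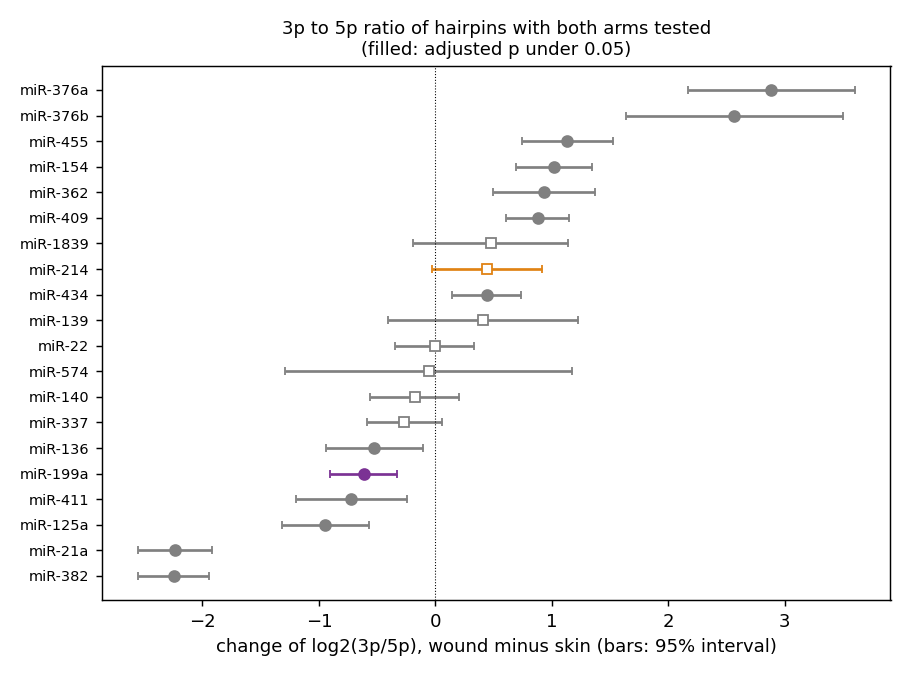
Change of the log2 ratio of the 3p to the 5p arm, wound minus skin (x axis), with 95% intervals, for the 20 hairpin names with both arms tested; filled circles passed limma at an adjusted p under 0.05. miR-199a (purple) lies at -0.62 and miR-214 (orange) at 0.45, with an interval that reaches 0.

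Between hairpins, 5 ratios of members were compared, for which 3 against 3 arrays allow no exact two-sided permutation p below 0.1. The ratio of miR-199b-5p to miR-214-3p differed most. Its log2 value was 0.49, 0.60 and 0.41 on wound arrays 3, 4 and 6, against 2.21, 1.09 and 1.78 on skin arrays 1, 2 and 5, a change of -1.20 or 2.29-fold. The ratio of miR-199a-3p to miR-214-3p was 2.13, 2.48 and 2.32 on the wound arrays, against 3.48, 3.19 and 3.46 on the skin arrays, a change of -1.07 or 2.09-fold. In both, each wound array lay below each skin array (exact permutation p = 0.1, adjusted over the 5 ratios 0.125).

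The ratio of miR-199a-5p to miR-199b-5p was -0.17, -0.05 and -0.04 on the wound arrays, against -1.14, -0.53 and -0.84 on the skin arrays, a change of 0.75. The ratio of miR-199a-5p to miR-214-3p, which both come from Dnm3os although miR-199a-5p also stands in Mir199a-1, was 0.32, 0.55 and 0.36 on the wound arrays, against 1.07, 0.56 and 0.95 on the skin arrays, a change of -0.45. Neither overlapped between groups, the last by a small margin (exact permutation p = 0.1, adjusted 0.125). The ratio of miR-199a-3p to miR-199b-5p overlapped, with 1.64, 1.88 and 1.91 on the wound arrays against 1.26, 2.10 and 1.67 on the skin arrays, a change of 0.13 (exact permutation p = 0.7, adjusted 0.7). The skin arrays differed more among themselves than the wound arrays in 4 of these 5 ratios, with skin array 1 at an end of its group in each of the 5.

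**Figure D4:**
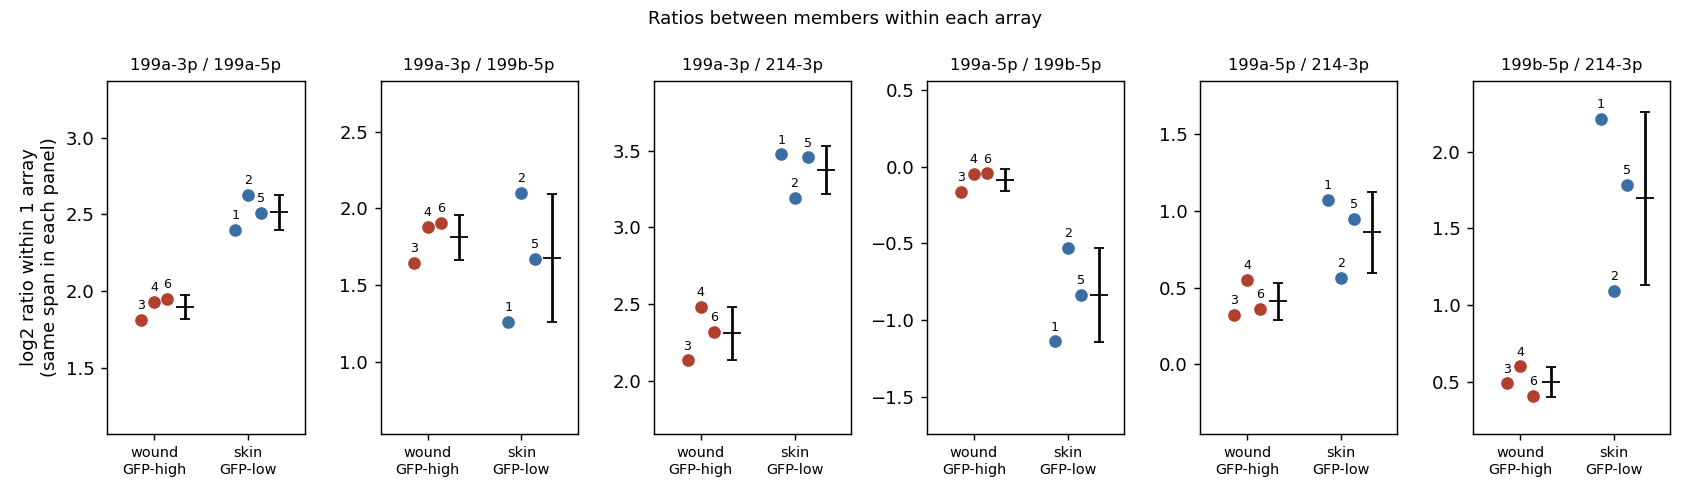
Log2 ratio of 2 members within each array (y axis, the same span in each panel), for GFP-high wound cells and GFP-low skin cells; points are arrays with their sample numbers and bars are mean ± SD (n = 3). The wound and skin arrays overlap only for miR-199a-3p over miR-199b-5p, and the skin arrays of the last panel spread from 1.09 to 2.21.

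To find which other names followed the members, the log2 values of each name were centred on their own mean over the 6 arrays. The measure was the root mean square difference over the 6 arrays, on the log2 scale. Among the members, miR-199a-3p and miR-199b-5p were nearest to each other at 0.26, and miR-199b-5p and miR-214-3p were farthest apart at 0.68. The 5 names nearest to the mean profile of the members were let-7d-5p (0.088), let-7f-5p (0.0942), miR-331-3p (0.0989), miR-103-3p (0.108) and miR-148b-3p (0.114). That mean profile averages members that differ from one another. It also includes miR-214-5p, which lay at the floor on all 6 arrays and so makes the mean profile flatter. The nearest names to single members, chosen after their values were seen, were miR-30b-5p for miR-199a-3p (0.0737), let-7d-5p for miR-199a-5p (0.0689), miR-27a-3p for miR-199b-5p (0.0934) and miR-342-3p for miR-214-3p (0.121).

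Other miRNAs linked to mesenchyme and fibrosis were set beside the members from fixed lists. These were written with earlier results of these data known, so their counts describe the data and are not independent evidence. The mesenchyme and pro-fibrotic lists both hold miR-145a. The mesenchyme list also holds miR-143, so the smooth muscle names miR-143-3p and miR-145a-5p are counted again among its higher names. Each list is read against 64.9% called among all tested names and a median of 0.38. Of 11 tested names of other mesenchyme-linked miRNAs, 4 were higher and 6 lower in wound cells in limma, with a median of -0.40 on the log2 scale. miR-10b-5p, a HOX-cluster miRNA, fell by 3.17, and miR-100-5p, of the miR-99 family, fell by 1.87 (limma adjusted p = 8.68e-06 and 1.28e-05). Of 10 tested pro-fibrotic names 9 were higher and 0 lower, with a median of 1.28 on the log2 scale. Both arms of miR-21a, miR-154 and miR-382 are among these, so the 10 names are not 10 separate miRNAs. miR-382-5p, on that list, averaged -1.71 ± 0.12 in wound cells (SD, n = 3) and stood at or just above the floor in skin cells, so the floor sets the size of its difference (limma adjusted p = 3.49e-06). miR-154-3p, also on that list, was not well above background on any skin array and averaged -1.89 ± 0.05 in wound cells (SD, n = 3). Of 16 tested anti-fibrotic names 2 were higher and 10 lower, with a median of -0.70. miR-29a-3p, which targets collagen messages, and miR-26b-5p each differed by -1.75 (limma adjusted p = 1.79e-05 and 5.73e-06). With normexp correction the calls of miR-26b-5p and miR-100-5p were lost, at differences of -1.16 and -0.79. Beside these, the largest member difference was the -0.75 of miR-199b-5p.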

How the data were processed

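Cy3-labelled total RNA of 6 preparations was measured on Agilent miRNA arrays, in 1 colour per the labels, which were read with Feature Extraction 10.7.3.1, per the file headers. Per the file headers, the deposited scanner output gives linear intensity for each spot, background-subtracted but not normalized between arrays, and other columns with per-spot flags, per the file headers. The authors' deposited table holds log2 values, which equal the log2 total signal per miRNA of each array minus a constant; it was used only as an alternative, and 0 of its sample columns were left unmatched by name.

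Unflagged spots of a probe were averaged and scaled: each array was divided by its 75th percentile, taken over probes well above background (over 50% of spots flagged so) on all 6 arrays, which was 786 to 1772 units. Probes of a name were averaged, raised to a floor of 0.0253 and taken to log2. Names with at least 1 probe passing this criterion on each of a group's 3 arrays were tested with limma 3.58.1 (R 4.3.3, two-sided, Benjamini-Hochberg adjustment over 222 names, 402 probes or 20 hairpins). Ratios between hairpins used exact permutation (scipy 1.17.1). The number of arrays limits the precision. The steps were tested on simulated data. Figures used matplotlib 3.10.9.

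Besides the members, the text names the 5 miRNAs nearest to their mean profile, the 2 tested names with the smallest p of each list, and tested cell type markers. The members and lists were chosen with earlier results of these data known. Alternatives were other scalings, normexp background correction (offset 50), probe summaries, floors, filters, limma with trend or weights, the slide row, each array left out and the authors' table. The array's design file cites an older genome build than GRCm38.p6, so no array coordinates were used.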

Additional observations from a re-analysis of the deposited data

How the results depend on the processing

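The calls of miR-199a-3p and miR-199b-5p as lower, and the change of the miR-199a arm ratio, held in limma with each array left out, at log2 differences of -0.75 to -0.54, -0.88 to -0.67 and -0.67 to -0.56. With normexp correction miR-199a-3p differed by -0.94 and miR-199b-5p by -0.96 (limma adjusted p = 0.173 for each), and with no filter on dim names miR-199a-3p kept -0.62 at a limma adjusted p of 0.0668. miR-199a-5p differed by -0.69 with the 75th percentile over all probes, -0.41 with median scaling and 0.23 with quantiles, each called, by -0.13 within row 2 of the slide, and by -0.08 to 0.06 with 1 array left out. miR-214-3p differed by -0.24 with the 75th percentile over all probes and -0.13 without scaling, by 0.68 with quantiles and 0.48 with array weights (both called), and by 0.27 to 0.62 with 1 array left out. Its arm ratio differed by 0.68, -0.075 and -0.80 with quantiles, no scaling and normexp, and by 0.27 to 0.62 with 1 array left out. The miR-199a-3p to miR-199b-5p ratio changed by -0.24 with quantiles and by -0.076 to 0.34 with 1 array left out. Of 222 names 98 were called higher and 46 lower; raising the floor to 4 times its value left 78 calls in all, normexp left 23, and there were 128 to 147 with 1 array left out. Of the calls 68.1% were higher, and 40.6%, 50%, 51.1% and 50% were with all probes, the median, quantiles and no scaling. With the authors' deposited table read by its column names, which puts arrays of both conditions in each group, 0 names were called. The values were then 0.29 for miR-199a-3p, 0.55 for miR-199b-5p, -0.19 for miR-214-3p, 0.12 for let-7d-5p, 0.25 for let-7f-5p, 0.15 for miR-331-3p, 0.30 for miR-103-3p, 0.20 for miR-148b-3p, -0.92 for miR-382-5p, 0.82 for miR-26b-5p, 0.78 for miR-29a-3p, 1.20 for miR-10b-5p, 0.79 for miR-100-5p, 2.97 for miR-203-3p, 2.77 for miR-205-5p, -0.14 for miR-126-3p, -0.25 for miR-143-3p and -0.91 for miR-145a-5p. With normexp the median difference of all 222 tested names was 1.03, against 0.38 on the reported scale. There miR-331-3p, miR-103-3p, miR-148b-3p, miR-203-3p and miR-205-5p turned to 0.97, 0.18, 1.02, 0.95 and 0.97, each still below that median. The calls of miR-143-3p (1.33), miR-26b-5p (-1.16) and miR-100-5p (-0.79) were lost with normexp (limma adjusted p = 0.0734, 0.0979 and 0.173). With quantiles let-7d-5p turned to 0.060. miR-126-3p turned to -0.19, -0.22 and -0.084 with all probes, quantiles and no scaling. Apart from the deposited table, whose column names mix the groups, the cause was not tested in any of these. No paired analysis was possible because the groups share no replicate numbers (3, 4 and 6 in wound, 1, 2 and 5 in skin). Dim signals, miR-214-5p above all, are limited by signal over background.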
